A study of Mus musculus with 3 samples.

Results

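The Rab family of small GTPases was examined in B16 mouse melanoma cells during the first 4 h of doxorubicin treatment. Members were taken by gene symbol, as Rab followed by a number and at most 1 letter, without the melanosome genes Rab38, Rab27a and Rab32. This gave 56 genes of the 18193 genes on the array with a probe set annotated to a single symbol, and 125 of its 45101 probe sets. RNA was taken at 0, 2 and 4 h of exposure to doxorubicin at 1 µg/ml, an anthracycline that poisons topoisomerase II. All cells were grown in DMEM with serum. The source and description fields call the treatment ET without expanding it, whereas the titles and protocols name doxorubicin. Each time point was 1 Affymetrix Mouse430_2 array of total RNA, so no test across cultures was possible. No untreated culture was taken at 2 h or 4 h, so the drug and the hours in culture cannot be told apart.

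Rab proteins switch between a GDP-bound form in the cytosol and a GTP-bound form on membranes, where they recruit effectors that move, tether and fuse vesicles. Exchange factors (GEFs) load GTP, GTPase-activating proteins (GAPs) end the active state, and a lipid tail added by Rab geranylgeranyl transferase anchors the protein. Each compartment carries its own Rab proteins, and in pigment cells the pathway also builds and carries melanosomes.

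Values are array signals, the brightness of a probe set after each array was scaled to a 2% trimmed mean of 500, and signals under a floor of 100 were set to 100 before the filter and the ratios. A gene was kept if the mean log2 of a probe set's floored signals over the 3 arrays reached that of a signal of 200, and its brightest such probe set stood for it. Of the 56 Rab genes, 39 passed, and 9723 genes passed in all. Since probe sets differ in affinity, signals are compared between arrays for a gene and not between genes. Log2 ratios of probe sets that share a gene differed with an SD of 0.40 at 2 h and 0.48 at 4 h, and this probe-level error does not cover the spread between cultures or arrays. Bulk signals cannot tell less RNA per cell from fewer cells that express a gene.

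The labels name B16 melanoma cells in the title and source fields, while the description speaks of macrophages from bone marrow. Of 12 pigment cell markers, 12, 10 and 11 reached 200 on the 0, 2 and 4 h arrays, with median signals of 11907, 8003 and 7756. Of 14 macrophage markers, 6, 4 and 4 reached 200, with medians of 194, 136 and 103. The markers of pigment cells went with the B16 label, and no array was regrouped. The summed macrophage marker signal was 4420, 5070 and 5496 at 0, 2 and 4 h, and 2536, 2025 and 1797 without Cd68, a lysosomal membrane protein, which alone was higher by enough to raise the sum. The summed pigment cell marker signal was 207508, 226671 and 228145, and the part of either list in the Rab values was not tested. Most of that sum came from Tyrp1, Dct, Pmel, Mlana and Gpnmb, which with Slc45a2 and Ednrb were above 0 h at both later times. Sox10 (11710, 2640 and 892), Mitf (6576, 2031 and 739) and Mc1r (3976, 2200 and 1196) were below 0 h at both. Tyr (221, 170 and 142) was also below, at signals near the floor. Oca2 (208, 149 and 207) was below 0 h at 2 h and close to it at 4 h. Among the other marker lists, 3 of 8 fibroblast, 2 of 6 lymphocyte and 1 of 7 endothelial genes reached 200 at 0 h. The arrays were washed on fluidics modules 3, 4 and 1, so module and time cannot be told apart.

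The comparison with 0 h asked which Rab transcripts differed in level early in treatment. Most Rab genes stayed within 2-fold of their 0 h signal, while Rab33b, Rab40c, Rab23, Rab14 and Rab9 were at least 2-fold lower at 4 h. At 2 h, 1 of the 39 Rab genes, Rab33b, was at least 2-fold lower, against 5.69% of all genes, and none was at least 2-fold higher, against 1.41%. At 4 h, 5 Rab genes were at least 2-fold lower (12.8% of them, against 14.4% of all genes) and none was at least 2-fold higher, against 2.32%. The shares of lower members were near or below those of all genes. The lower count depended on the scaling of the arrays, with 2 lower genes (Rab33b and Rab40c) and 1 higher gene (Rab4b) when the arrays were set to equal medians, and 9 lower and 0 higher when they were set to the hybridization spike-ins. The shares of all genes moved likewise, to 8.98% lower and 7.45% higher with equal medians and 22.7% lower and 0.668% higher with spike-ins.

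The median log2 ratio of the 39 Rab genes was -0.07 at 2 h, against -0.01 for all genes, and 0.00 at 4 h, against -0.07 for all genes. At 4 h the ratios ran from -3.31 to 0.71, with the middle 50% of Rab genes between -0.51 and 0.29. For all genes that middle range was -0.60 to 0.34, so the members spread about as widely as the array as a whole. In all, 19 Rab genes lay below their 0 h signal at 4 h and 20 above it. With equal medians 13 lay below and with spike-in scaling 29, since these scalings moved the median 4 h ratio of all genes by 0.31 and -0.32. Small ratios below are therefore to be read relative to the other genes. The Rab median at 4 h, 0.07 above that of all genes, was below it with quantile normalization (difference -0.09) and with a filter of 400 (difference -0.014).

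**Figure D1:**
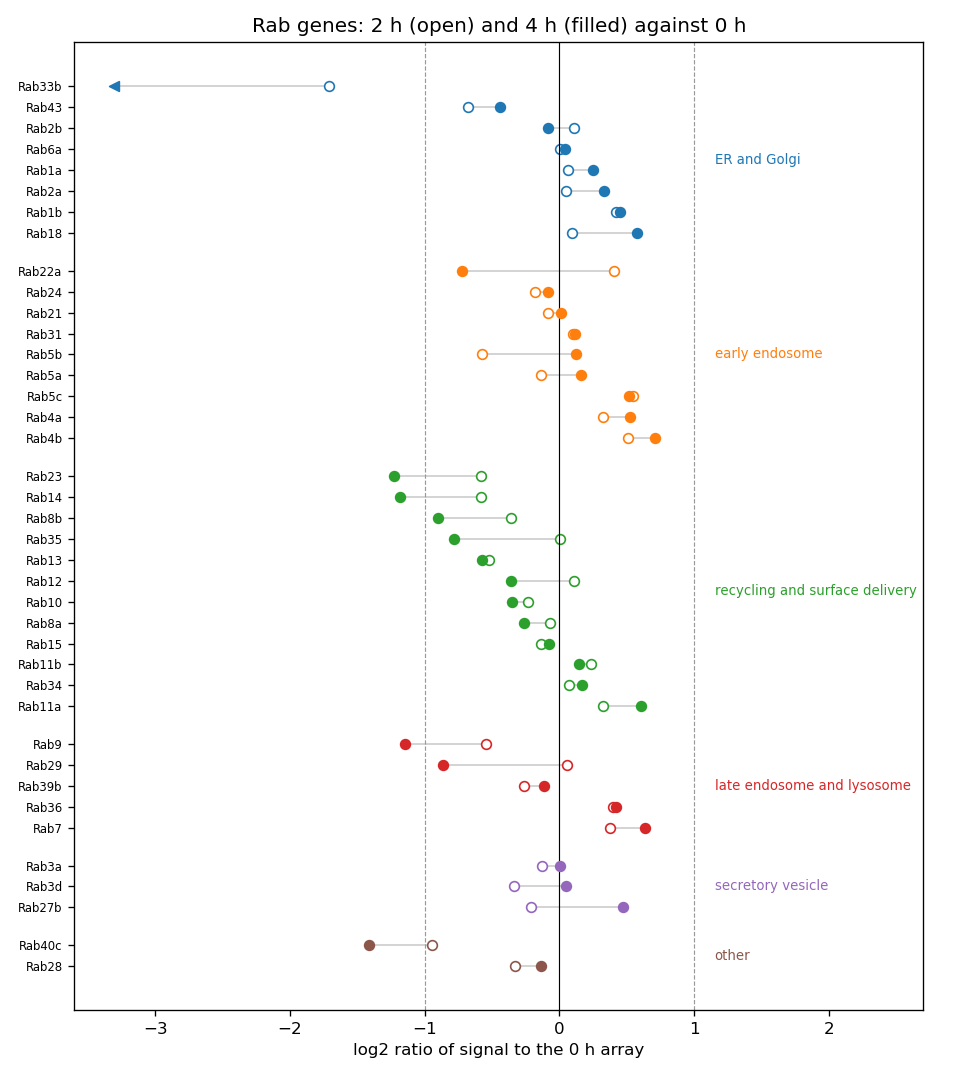
Log2 ratio of signal to the 0 h array (x axis) for the 39 Rab genes that passed the filter, grouped by compartment, with 2 h as open points, 4 h as filled points, and dashed lines at 2-fold. A triangle marks a 4 h signal under the floor, which makes the ratio a bound. Rab33b, Rab40c, Rab23, Rab14 and Rab9 lie left of the dashed line at 4 h, and no gene lies right of the other.

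Ratios also varied with brightness on these arrays. When the 9723 genes were divided by signal into 4 bins of like number, 17 of the 39 Rab genes fell in the brightest. There the median log2 ratio of all genes at 4 h was 0.28, and 73 of 2431 genes were at least 2-fold lower. The Rab genes of that bin had a median of 0.14, and 1 of them, Rab14, was at least 2-fold lower. In the next bin the 8 Rab genes had a median of -0.65 at 4 h, against -0.08 for all genes there. The 6 Rab genes of the dimmest bin had a median of -0.10, against -0.29, and the 8 of the bin above it -0.08, against -0.29. These medians are descriptions of 3 arrays, and with 6 to 17 members each they were not tested.

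**Figure D2:**
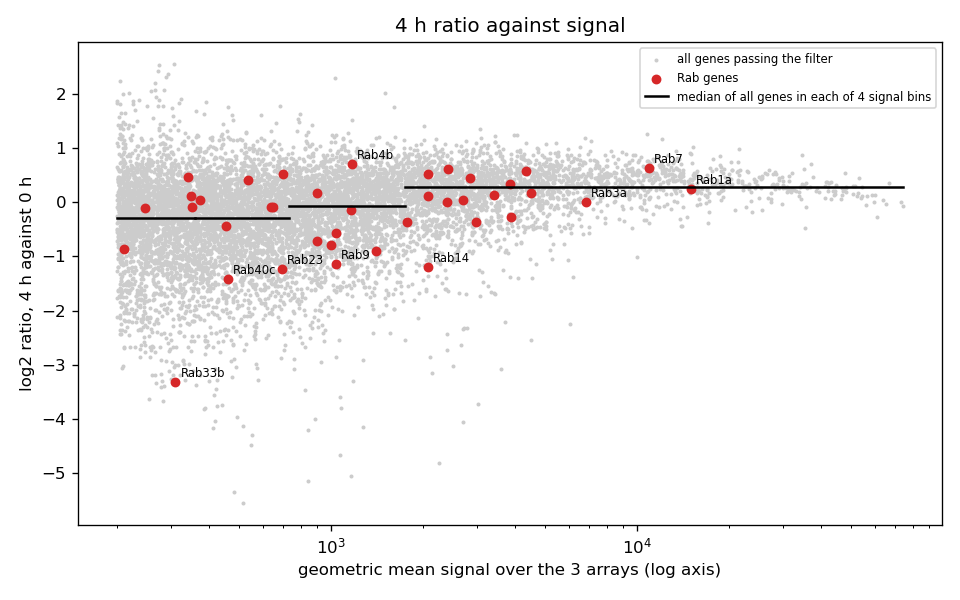
Log2 ratio at 4 h against 0 h (y axis) by geometric mean signal over the 3 arrays (x axis, log scale), with all 9723 genes in grey and the 39 Rab genes in red. Black bars give the median of all genes in each of the 4 signal bins, which is -0.29 in the dimmest and 0.28 in the brightest.

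Among the Rab genes of the endoplasmic reticulum and Golgi, Rab33b stood furthest below its 0 h signal. Rab33b, a Golgi GTPase that also binds the autophagy protein Atg16l1, had signals of 990, 302 and 21.6 on the 0, 2 and 4 h arrays. The signal was lower on each later array, and the last lay under the floor. It was 3.28-fold lower at 2 h (log2 ratio -1.71) and at least 9.90-fold lower at 4 h, from a single probe set. Rab33b passed the filter through the floor, since without the floor its mean log2 signal lay under that of 200, and it was the only Rab gene of which this was so. Both sizes exceeded the probe-level error, also that of 0.54 at 2 h and 0.64 at 4 h in the dimmest bin of probe sets. That error came from other genes, as Rab33b has a single probe set. Since Rab33b also passed through its 0 h signal and the floor, the comparison does not test its lower signals.

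The other Golgi members lay closer to their 0 h signal. Rab1a, which acts in transport from the endoplasmic reticulum to the Golgi, had signals of 13963, 14598 and 16555, at 4 h a log2 ratio of 0.25 ± 0.00 over its 2 probe sets (SD). Its relative Rab1b had signals of 2329, 3113 and 3187 and a ratio of 0.45. Rab2a, needed for traffic between these compartments, had signals of 3516, 3641 and 4424 and a ratio of 0.33 ± 0.08 (SD over 4 probe sets). With the scaling used here all 3 were highest at 4 h, by less than the overall probe-level error of 0.48. The ratios of Rab1b and Rab2a exceeded the 0.31 of the brightest bin of probe sets. All genes of the brightest signal bin, however, had a median of 0.28 at 4 h, close to the ratio of Rab2a. Rab1b stood at 0.13 under spike-in scaling and at 0.76 with equal medians. The direction for Rab1a depended on the scaling, with a 4 h ratio of -0.16 under quantile normalization and -0.08 under spike-in scaling. Rab18, found on lipid droplets and the endoplasmic reticulum, had signals of 3718, 3972 and 5526, 1.49-fold higher at 4 h (0.57 ± 0.18, SD over 2 probe sets). Rab2b stood at -0.08 ± 0.16 (SD over 4 probe sets).

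Rab43 and Rab6a gave different values by probe set. Rab43, a GTPase of Golgi traffic, had signals of 586, 367 and 432 on its brightest probe set and of 834, 296 and 72.9 on the other that passed. The log2 ratios at 4 h were -0.44 and -3.06, so 1 probe set stood near its 0 h signal and the other was under the floor at 4 h. The mean over both was -1.75. Rab6a, which acts in retrograde transport through the Golgi, stood at 0.04, 0.62 and 1.31 on its 3 passing probe sets at 4 h. Its dimmest passing probe set had signals of 463, 746 and 1145, highest at 4 h, whereas the brightest had 2683, 2687 and 2767. Whether these differences come from transcript variants or from cross-hybridisation was not tested.

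**Figure D3:**
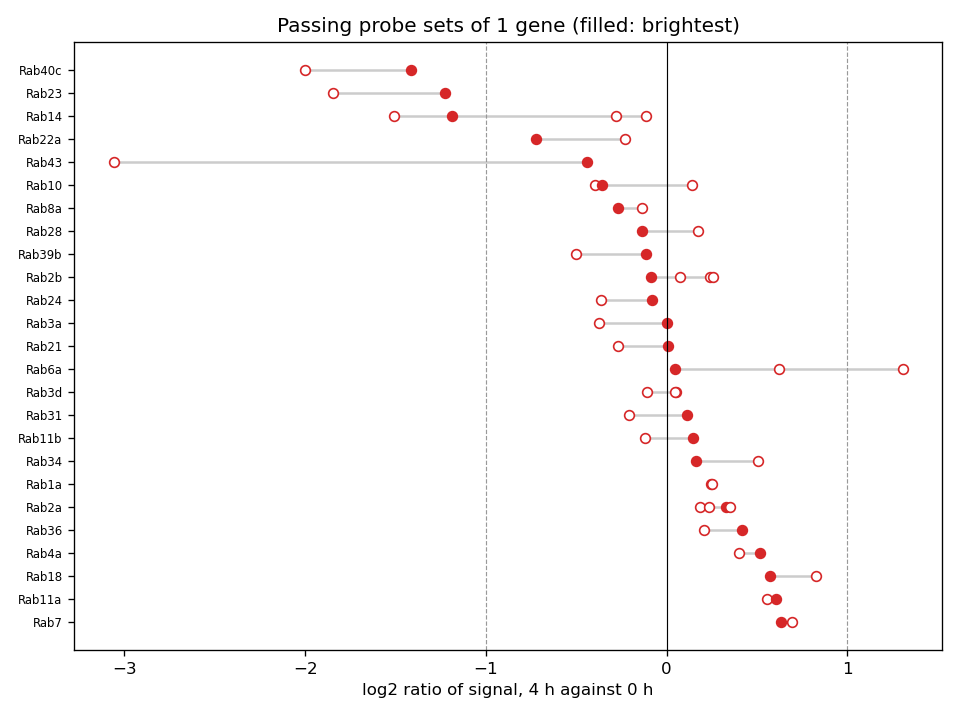
Log2 ratio at 4 h against 0 h (x axis) for each passing probe set of the 25 Rab genes with at least 2 of them, with the brightest probe set filled and dashed lines at 2-fold. The probe sets of Rab43 lie furthest apart, at -3.06 and -0.44, while those of Rab1a and Rab7 nearly coincide.

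Of the 25 Rab genes with at least 2 passing probe sets, 17 agreed in sign across their probe sets at 4 h. The SD between probe sets of a Rab gene was 0.34 at 2 h and 0.45 at 4 h, near the values for all genes. In 12 of the 39 genes the brightest probe set had a name ending that marks possible cross-hybridisation or several transcripts. Rab3a was the widest at 2 h. It encodes a GTPase of regulated exocytosis, and its brightest probe set had signals of 7014, 6399 and 7029, against 375, 75.9 and 289 on the other. The log2 ratios at 2 h were -0.13 and -1.91, and at 4 h 0.00 and -0.38. The -1.91 is a bound, as the 2 h signal of 75.9 lay under the floor.

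None of the 9 passing early endosome genes differed 2-fold at either time, against 14.4% of all genes lower and 2.32% higher by that size at 4 h, a background under which few of 9 genes would be counted. Their median log2 ratio was 0.10 at 2 h and 0.12 at 4 h. Rab4b, which with Rab4a returns cargo rapidly to the cell surface, had the highest 4 h ratio of all Rab genes. Its signals were 884, 1255 and 1443 at 0, 2 and 4 h, 1.63-fold higher at 4 h from a single probe set. Rab4a had signals of 574, 716 and 823, with a ratio of 0.52 ± 0.09 (SD over 2 probe sets). On these probe sets both relatives were highest at 4 h and lowest at 0 h, but the other passing probe set of Rab4a, with signals of 366, 570 and 482, was highest at 2 h.

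The 3 Rab5 genes, which control fusion of early endosomes, differed most in their ratios at 2 h. Rab5c had signals of 1621, 2364 and 2322, with a log2 ratio of 0.54 at 2 h and 0.52 at 4 h. Rab5b had signals of 389, 261 and 424, with ratios of -0.58 and 0.12. Rab5a had 895, 812 and 1002, with ratios of -0.14 and 0.16. The Rab5 genes lay 1.12 apart at 2 h and 0.39 apart at 4 h on the log2 scale, each from a single passing probe set. The 4 h gap was below the overall probe-level error of 0.48. At 2 h the Rab5b ratio was near the 0.54 of the dimmest bin of probe sets, and whether the courses differ was not tested. Among the 7 subfamilies with at least 2 passing members, none lay as much as 1 apart at 4 h.

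Rab22a, a GTPase of early endosomes, was the lowest of this compartment at 4 h. It had signals of 966, 1280 and 586, above 0 h at 2 h and below it at 4 h, with a ratio of -0.72 ± 0.35 at 4 h (SD over 2 probe sets). From 2 h to 4 h it was 1.13 lower on the log2 scale, and it was with Rab33b the only Rab gene at least 2-fold lower in that step, against 5.41% of all genes. Its other passing probe set had signals of 654, 650 and 557, a step of -0.22 from 2 h to 4 h, so the higher 2 h signal and the 2-fold step rest on the brightest probe set. No Rab gene was at least 2-fold higher in that step, against 0.843% of all genes. Rab21, which acts in integrin uptake, Rab24 and Rab31 lay between -0.08 and 0.11 at 4 h on their brightest probe sets. Their other passing probe sets stood lower, at -0.27, -0.36 and -0.21.

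The 12 passing Rab genes of recycling and surface delivery had a median log2 ratio of -0.10 at 2 h, against -0.01 for all genes, and -0.36 at 4 h, against -0.07 for all genes. At 4 h 2 of them were at least 2-fold lower, against 14.4% of all genes, and 9 lay below 0 h, against 53.9% of all genes. Equal-median scaling moved the median of all genes by 0.31 at 4 h, so the count below 0 h depends on the scaling. Such a shift moves these 12 genes along with all genes, and the gap between their medians was not tested. Rab23, an inhibitor of Hedgehog signalling, had signals of 1053, 701 and 450 at 0, 2 and 4 h, 2.34-fold lower at 4 h (log2 ratio -1.23 ± 0.44, SD over 2 probe sets). Its other passing probe set had signals of 636, 342 and 177 and a ratio of -1.85. Both probe sets stepped down at each time.

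Rab14, which acts between the Golgi and endosomes, had signals of 3118, 2084 and 1372, 2.27-fold lower at 4 h (-1.18 ± 0.68, SD over 4 probe sets). Another probe set had 1998, 1619 and 703, a ratio of -1.51, whereas the remaining pair stood at -0.28 and -0.12. The 4 probe sets thus agreed in direction and not in size. With the mean over probe sets in place of the brightest, Rab14 was not at least 2-fold lower.

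Rab8b, an exocytic GTPase, had signals of 1881, 1468 and 1010, 1.86-fold lower at 4 h. Its close relative Rab8a had 4177, 3985 and 3473 and stood at -0.27 ± 0.09 on the log2 scale (SD over 2 probe sets). The Rab8 genes lay 0.63 apart at 4 h, the widest gap among the 7 subfamilies. Rab35, which acts in rapid recycling and cytokinesis, had signals of 1195, 1198 and 696, so its lower signal appeared at 4 h. Rab13, a GTPase of cell junctions, had 1335, 931 and 897, so its lower signal was already present at 2 h.

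The Rab11 genes, the markers of recycling endosomes, lay above 0 h on their brightest probe sets. Rab11a had signals of 1947, 2436 and 2965, 1.52-fold higher at 4 h, with a ratio of 0.61 ± 0.04 (SD over 2 probe sets). Rab11b had signals of 3131, 3685 and 3459, a ratio of 0.14 ± 0.19 (SD over 2 probe sets), but its other probe set had 354, 428 and 326, a ratio of -0.12. Rab34 stood at 0.17 ± 0.24 (SD over 2 probe sets), Rab15 at -0.08, Rab10 at -0.36 ± 0.30 (SD over 3 probe sets) and Rab12 at -0.36.

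Late endosome and lysosome genes held both directions. Rab7, the main GTPase of late endosomes and lysosomes, had signals of 8683, 11236 and 13478 at 0, 2 and 4 h, 1.55-fold higher at 4 h (0.63 ± 0.04, SD over 2 probe sets). Its other probe set had 4073, 6014 and 6588, so both were highest at 4 h. The size depended on the scaling, with a 4 h ratio for Rab7 of 0.20 under quantile normalization and 0.31 under spike-in scaling. Equal medians gave 0.94, and all genes of the brightest signal bin had a median of 0.28 with the scaling used here. Rab9, which returns mannose 6-phosphate receptors from late endosomes to the Golgi, had signals of 1540, 1054 and 696. It was 2.21-fold lower at 4 h from a single probe set (log2 ratio -1.15). The main late endosomal Rab gene and the gene of the return route to the Golgi thus lay on opposite sides of 0 h. Rab29, which recruits the kinase Lrrk2, had 254, 264 and 139, a ratio of -0.87 at a signal close to the floor. Rab36 stood at 0.42 ± 0.15 and Rab39b at -0.11 ± 0.28 (SD over 2 probe sets each).

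**Figure D4:**
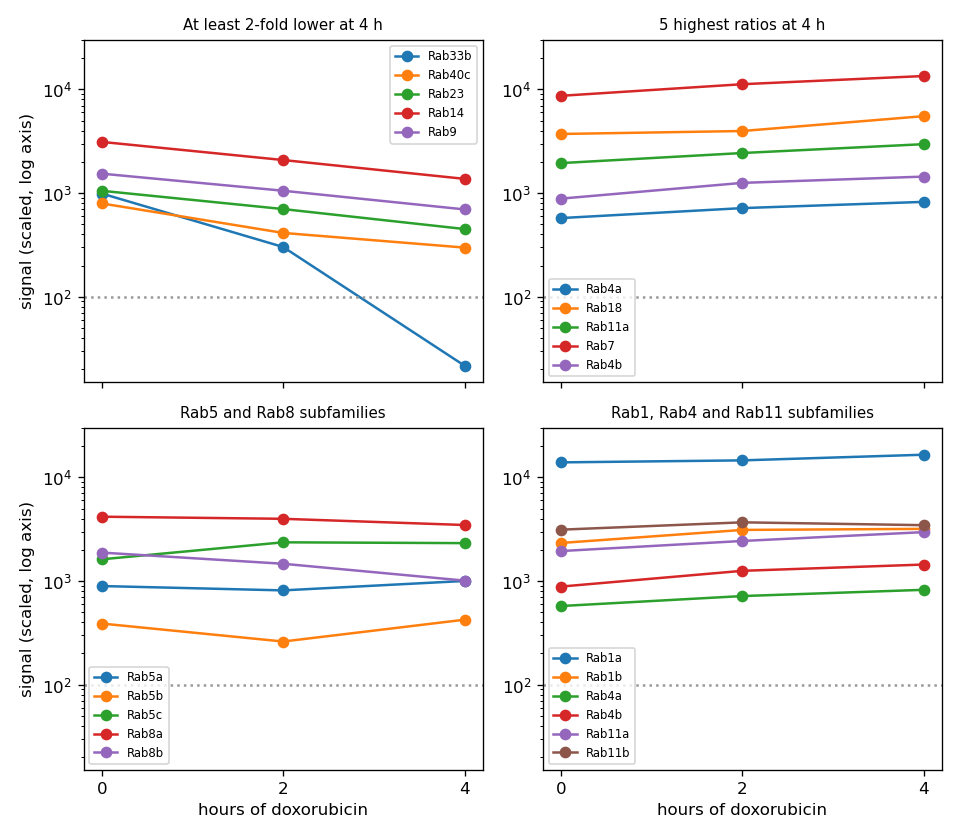
Signals of selected Rab genes (y axis, log scale) at 0, 2 and 4 h (x axis), with 1 array per point and a dotted line at the floor of 100. The upper panels show the 5 genes at least 2-fold lower at 4 h and the 5 with the highest 4 h ratios, and the lower panels show subfamilies. Rab33b crosses the floor, and lines of different genes are not to be compared in height.

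Of the 3 passing secretory vesicle genes none differed 2-fold at either time, too few genes to set against 14.4% of all genes lower and 2.32% higher at 4 h. Rab3d, which acts in exocytosis of secretory granules, had signals of 398, 316 and 412, a ratio of 0.05 ± 0.09 at 4 h (SD over 3 probe sets). Rab27b had 323, 278 and 447, a ratio of 0.47 from a probe set open to cross-hybridisation. Its other 3 probe sets were below the filter.

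Rab40c, which carries a SOCS box and serves as a substrate receptor of a cullin ubiquitin ligase, was the lowest of the remaining members. It had signals of 795, 413 and 298 at 0, 2 and 4 h, 2.67-fold lower at 4 h (log2 ratio -1.42 ± 0.41, SD over 2 probe sets). Both of its probe sets were lower at each later time. The dimmer one passed the filter through the floor, with a 4 h signal of 76.7. At 2 h their ratios were -0.95 and -0.91. Rab28, a GTPase of cilia, had 1295, 1028 and 1178, a ratio of -0.14 ± 0.22 (SD over 2 probe sets).

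A smaller size of 1.5-fold, chosen after the values were seen, was also counted. At 4 h 9 Rab genes were lower by 1.5-fold or more (25.5% of all genes were), and 3 were higher by that size (11.5% of all genes). The 3 higher genes were Rab4b, Rab7 and Rab11a, and the lower ones added Rab8b, Rab29, Rab35 and Rab22a. Under spike-in scaling the log2 ratios of Rab4b, Rab7 and Rab11a were 0.38, 0.31 and 0.29. Equal medians gave 1.01, 0.94 and 0.91. At 2 h 4 Rab genes were lower by this size (14.9% of all genes) and none was higher (6.62% of all genes). Over the 3 arrays, 9 Rab genes were lower at 2 h and lower again at 4 h (30.9% of all genes were), and 12 were higher at both steps (23.7% of all genes were).

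The remaining 17 Rab genes did not pass the filter, and no ratio is given for them. On their brightest probe set, 9 were under a signal of 100 on all arrays, among them Rab3b, Rab3c, Rab20, Rab26, Rab30 and Rab44. Signals of 200 or more appeared once or more in 3 of them. Rab6b, a neuronal relative of Rab6a, had 206, 291 and 116. Rab7b had 235, 33.3 and 63.7, and Rab33a, the relative of Rab33b, had 22.9, 83.9 and 210. These values lie near the floor, where the probe-level error was widest. The others, Rab17, Rab25, Rab37, Rab39 and Rab42, stayed between 12.1 and 167.

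Gene size was also set against the ratios. Across the 39 Rab genes, the Spearman correlation between genomic span in GRCm38.p6 and the 4 h log2 ratio was 0.07, against -0.09 across 9710 genes. The points share the same 3 arrays, and genes are not independent replicates. The median 4 h ratio was -0.08 in the 13 shortest Rab genes and 0.04 in the 13 longest.

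Promoter sequences were read for the genes at the ends of the range, to show how their start regions differ in letters. Windows of 250 bases before to 50 after the annotated start came from RefSeq (build GRCm38.p6), and 46 of the 56 Rab genes had at least 1. Shown are the windows of Rab33b and Rab40c, the lowest at 4 h, and of Rab4b and Rab11a, which are among the 3 highest and have a single window each. Each is read along the strand of its gene, and capitals mark the GC box letters GGGCGG and the CCAAT box letters CCAAT, searched on both strands.
Rab33b (chr3:51483716-51484015, plus strand): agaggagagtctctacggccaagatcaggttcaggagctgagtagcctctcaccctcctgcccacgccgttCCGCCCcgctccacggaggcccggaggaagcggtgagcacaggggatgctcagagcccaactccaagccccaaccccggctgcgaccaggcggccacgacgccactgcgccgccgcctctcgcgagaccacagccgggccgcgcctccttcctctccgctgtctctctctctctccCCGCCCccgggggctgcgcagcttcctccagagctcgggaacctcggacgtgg
Rab40c (chr17:25919665-25919964, minus strand): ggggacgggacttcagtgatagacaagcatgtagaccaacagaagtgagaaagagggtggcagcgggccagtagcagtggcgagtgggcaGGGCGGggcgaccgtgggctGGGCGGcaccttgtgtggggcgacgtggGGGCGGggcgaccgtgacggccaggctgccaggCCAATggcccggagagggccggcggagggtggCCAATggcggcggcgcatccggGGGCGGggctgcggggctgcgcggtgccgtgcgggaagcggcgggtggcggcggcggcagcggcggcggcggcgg
Rab4b (chr7:27178834-27179133, minus strand): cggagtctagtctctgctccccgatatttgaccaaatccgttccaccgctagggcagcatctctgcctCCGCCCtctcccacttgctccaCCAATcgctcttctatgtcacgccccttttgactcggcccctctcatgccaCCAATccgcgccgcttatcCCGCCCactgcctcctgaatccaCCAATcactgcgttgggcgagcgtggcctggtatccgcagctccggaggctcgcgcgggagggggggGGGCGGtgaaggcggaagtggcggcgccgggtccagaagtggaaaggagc
Rab11a (chr9:64737707-64738006, minus strand): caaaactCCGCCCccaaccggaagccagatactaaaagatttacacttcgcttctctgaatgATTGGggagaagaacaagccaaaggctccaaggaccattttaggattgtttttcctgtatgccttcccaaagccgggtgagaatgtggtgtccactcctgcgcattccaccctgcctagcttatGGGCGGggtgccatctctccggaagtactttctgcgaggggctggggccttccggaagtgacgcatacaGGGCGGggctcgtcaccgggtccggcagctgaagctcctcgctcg

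The Rab33b window held 2 GC boxes and no CCAAT letters, and Rab40c held 4 and 2. The Rab4b window held 3 GC boxes and 3 CCAAT boxes, and Rab11a held 3 and 1. GC boxes were found in 71.1% of the 45 windows of passing Rab genes, against 35.7% of 32851 windows of all genes. CCAAT letters were found in 44.4% against 37.4%, and the TATA box letters TATAAA in 4.44% against 13.6%. The median GC content was 63.3% in passing Rab windows and 52.7% in all windows. The windows of all genes were not limited to genes on the array or to those that passed the filter. Whether these differences are particular to Rab genes or shared by other passing genes was therefore not tested. Among 6 windows of the 5 genes at least 2-fold lower at 4 h, 5 held a GC box and 1, that of Rab40c, held CCAAT letters. Among 4 windows of Rab7, Rab4b and Rab11a, 4 held a GC box and 3 CCAAT letters. A match describes letters in a window and is not a measured site.

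The genes that load, recycle and read Rab proteins were also read from lists, against a background at 4 h of 14.4% of all genes at least 2-fold lower and 2.32% higher by that size. Lists were not matched for brightness, with which ratios varied. In the group for lipid attachment and recycling, 2 of 6 passing genes were at least 2-fold lower and none was 2-fold higher. Rabggta, the alpha subunit of Rab geranylgeranyl transferase, had signals of 611, 693 and 259 at 0, 2 and 4 h, 2.36-fold lower at 4 h. Rabif, a chaperone of nucleotide-free Rab proteins, had 2414, 1880 and 1048, 2.30-fold lower (-1.20 ± 0.67, SD over 3 probe sets). Other genes of the group lay on the opposite side. Rabac1, a receptor for prenylated Rab proteins, was 1.70-fold higher and the Rab escort protein Chm 1.66-fold higher (0.74 ± 0.37, SD over 2 probe sets). Chm had signals of 450, 326 and 750, below 0 h at 2 h. Gdi2, which extracts Rab proteins from membranes, was at 0.39 ± 0.20 (SD over 6 probe sets), and Rabggtb, the beta subunit of the transferase, at -0.36.

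At 4 h, 4 of 33 passing GEF genes were at least 2-fold lower, none was 2-fold higher, and the list had a median log2 ratio of 0.06. The lowest were Rin3, which acts on Rab5, at -1.71, Ric1, a subunit of the Rab6 exchange factor, at -1.30, and Hps4, at -1.14. Hps4 forms with Hps1 the exchange factor of the melanosome Rab proteins, and Hps1 stood at 0.63 ± 1.13 (SD over 2 probe sets). That spread is larger than the ratio itself. Dennd5a (0.60) and Rab3gap2 (0.66), which acts on Rab18, were the other high members.

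At 4 h, 5 of 29 passing GAP genes were lower by 2-fold or more and 1 was higher by that size, with a median of -0.24. Tbc1d14, which binds Rab11 and acts in autophagy, had signals of 1371, 705 and 242, 5.68-fold lower at 4 h (-2.50 ± 1.20, SD over 2 probe sets). Rabgap1, a GAP for Rab6, had 967, 578 and 197 and was 4.91-fold lower. Usp6nl, a GAP for Rab5, was 3.54-fold lower (-1.82 ± 0.71, SD over 3 probe sets). All 3 stepped down at each time. Sgsm3 was 2.21-fold higher, with signals of 108, 362 and 238 that start near the floor. Tbc1d9b stood at 0.59 ± 0.24 and Evi5 at 0.43 ± 0.33 (SD over 2 probe sets each). Tbc1d25, a GAP for Rab33b that was chosen after its value was seen, stood at -1.48.

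Of 44 passing effector genes, 8 were at least 2-fold lower and none was 2-fold higher at 4 h, with a median of -0.39. Rab11fip4, which binds Rab11, had signals of 603, 424 and 73.1, at least 6.03-fold lower at 4 h. Micall2, which binds Rab13, had 504, 346 and 99.1, at least 5.04-fold lower, and Acap2, which binds Rab35, was 2.98-fold lower. The 4 h signals of Rab11fip4 and Micall2 lay under the floor, and that of Acap2 was 205. The highest were Myo5a, a myosin that carries melanosomes, at 0.94 ± 0.20 (SD over 3 probe sets), Ocrl, a phosphoinositide phosphatase, at 0.82, and the Golgi tether Uso1 at 0.78.

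Genes of the Ras family and of the Arf and Sar family, other small GTPases, were set beside the Rab genes without a test of any difference. At 4 h 2 of 14 Ras family genes and 2 of 13 Arf and Sar family genes were at least 2-fold lower, and 1 gene of the Arf and Sar family, Arl16, was at least 2-fold higher. The medians were 0.19 and 0.24, against 0.00 for the 39 Rab genes. Medians of all genes at 4 h ran from -0.29 in the dimmest signal bin to 0.28 in the brightest. As no list was matched for brightness, differences between list medians cannot be told apart from it. The lowest of each were Rap2b at -2.01 ± 0.76 (SD over 3 probe sets) and Arf6, a GTPase of the plasma membrane and endosomes, at -3.03 ± 0.97 (SD over 3 probe sets). Among the highest were Nras at 0.86 ± 0.38 (SD over 3 probe sets), Arl3 at 0.92 and Arl16 at 1.04, whose signals of 172, 206 and 354 lay near the floor.

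**Figure D5:**
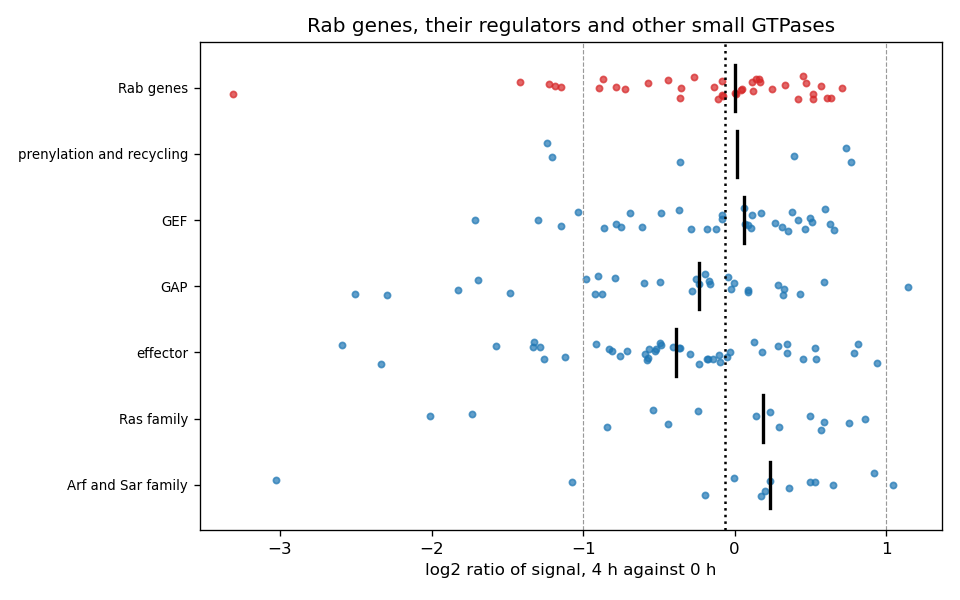
Log2 ratio at 4 h against 0 h (x axis) of each passing gene, for the 39 Rab genes in red and for the lists of Rab regulators and of Ras, Arf and Sar family genes in blue, spread vertically for legibility. Short black bars are list medians, the dotted line is the median of all genes (-0.07) and dashed lines mark 2-fold. Lists are not matched for brightness. The Rab genes run from -3.31 to 0.71.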

How the data were processed

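Time points of the 3 arrays were taken from the titles. Per the submitters' processing notes GCOS 1.4 was used, and which algorithm gave the signals was not stated. The deposited values are linear probe set intensities already scaled by the authors, with a 2% trimmed mean over 45101 probe sets of 150.0 on each array. Each array was rescaled to 500, floored at 100 and put on the log2 scale, and a filter of 200 on these floored values left 15785 probe sets. The platform annotation listed 35890 probe sets, 34958 with 1 symbol and 932 with several, and left 9211 unnamed. Symbols were updated by Entrez gene ID for 34754 probe sets. Genes were counted by a fixed size, with no test and no p-value. Named in full were members at least 2-fold different, the 3 highest and 3 lowest at each time and 2 per compartment. Lists gave their 3 lowest and 3 highest genes at 4 h. Members, lists and alternatives were chosen with earlier results of these data known. Alternatives covered scaling, floor, filter, probe set choice and symbols. A further list of small GTPases is not reported here. Counting was tested on simulated data with changes planted in bright genes and noise smaller than the probe-level error. No changes were planted in dim genes and no shift with brightness was simulated, so those limits were not covered. The software was Python 3.11.15 with pandas 2.3.3, numpy 2.4.6, matplotlib 3.10.9 and scipy 1.17.1.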

Additional observations from a re-analysis of the deposited data

How the results depend on the processing

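The 2 h count of Rab genes at least 2-fold lower, 1 in the main setting, was 2 with spike-in scaling, 2 without the filter, 2 with suffixed probe sets left out, 3 when probe sets were averaged and 0 with a filter of 400 or with the filter on signals before the floor, an alternative chosen after the data were seen, as both remove Rab33b. At 1.5-fold it was 4. The 4 h count of lower genes, 5 in the main setting, was 2 with equal medians (Rab33b and Rab40c), 9 with spike-in scaling and 9 at 1.5-fold. The 4 h count of genes at least 2-fold higher, 0 in the main setting, was 1 with equal medians (Rab4b), 1 without the filter (Rab33a) and 3 at 1.5-fold. The 4 h Rab median relative to all genes was 0.07 in the main setting and -0.0905 with quantile normalization, and a filter of 400 also turned its sign (-0.014). Equal medians moved the median log2 ratio of all genes by 0.31 at 4 h, quantile normalization by 0.12 and spike-in scaling by -0.32, and the cause of the differences between scalings was not tested. Of 82 values of these summaries under the alternatives, 68 stayed within 1.5 times the main count or 0.1 of the main median. For 20 named genes, 503 of 510 log2 ratios under the alternatives moved by no more than the probe-level error, and no gene at least 2-fold different turned direction. That count is not a measure of stability. The scalings moved the median of all genes by less than that error, and several alternatives leave bright genes unchanged by design. Genes that an alternative removed were not counted. Smaller 4 h ratios did change sign with the scaling. Among them, Rab1a stood at -0.16 and Rab34 at -0.08 with quantile normalization, and Rab31 at -0.21 with spike-in scaling. With equal medians Rab28 stood at 0.17 and Rab8a at 0.04. Rab43 stood at -1.08 at 2 h and -1.75 at 4 h when probe sets were averaged, and Rab3a at -1.02 at 2 h then and -1.91 with suffixed probe sets left out. These Rab3a values and the 4 h value of Rab43 rest on a probe set with a signal under the floor, so they follow the floor. Rab33b at 4 h stood at -4.31, -2.31 and -3.86 with a floor of 50, a floor of 200 and an offset of 50, as its bound follows the floor. No paired analysis was possible because each time point is 1 array, and for the same reason no array could be left out. The number of arrays and signals near the floor limit every ratio.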
